A study of Mus musculus with 24 samples.

Results

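The genes described here are the 81 genes of cytosolic ribosomal proteins among 45706 genes in the table of counts from mouse olfactory epithelium (OE). They were chosen by symbol: Rpl or Rps with a number and optional letters, with Rplp0, Rplp1, Rplp2 and Rpsa, and without the Rps6k kinases, names that end in -ps and the l-suffixed paralogs other than Rpl22l1, Rpl39l and Rps27l. They make up 49 genes of the large subunit and 32 of the small subunit, and all 81 passed the filter on low counts. Bulk RNAseq was made from the whole OE of untreated *WT* and *iRhom2-/-* mice. The *iRhom2-/-* mice were of a mixed 129Sv/C57BL/6 background, and their Rhbdf2 (tm1b) allele carries LacZ under the endogenous promoter. The background of the *WT* mice is not given in the methods. Values are given for 3 *WT* and 3 *iRhom2-/-* mice of 8 weeks and 3 *WT* and 3 *iRhom2-/-* mice of 10 weeks, 12 of the 24 mice in the series. Sexes were mixed, with 1 female each in the *WT* mice of both ages and in the *iRhom2-/-* mice of 10 weeks. The labels give the libraries of 8 and of 10 weeks different core reference numbers, so age and what this number stands for cannot be told apart. Which strain's alleles a mouse carried outside Rhbdf2 was not tested.

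The cytosolic ribosome joins a small subunit, which reads the mRNA, to a large subunit, which forms the peptide bonds, and each contains ribosomal RNA and a set of proteins that is made in near-equal numbers in every growing cell. Most mRNAs of these proteins are short, abundant and begin with a run of pyrimidines that ties their translation to mTOR signalling. Because such mRNAs were often copied back into the genome, the mouse carries many processed pseudogenes, which lack introns and can differ from the parent mRNA by few bases.

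The libraries held 33812446 to 48660394 counts. Rhbdf2, which codes for iRhom2, was at 19.4 to 22.8 CPM (counts scaled to the library size, with TMM) in the 6 *WT* libraries, above all 6 *iRhom2-/-* libraries at 6.87 to 12.9 CPM. Bpifb9b, a secreted protein of the nasal epithelium, took 13.6% of all counts in *iRhom2-/-* mouse 2 of 10 weeks and 5.53% in *WT* mouse 1 of 8 weeks. The summed level of 6 plasma cell markers was 8201, 591 and 606 CPM in the *WT* mice of 8 weeks against 221 to 270 CPM in the *iRhom2-/-* mice of that age, and 706 to 789 CPM against 420 to 1512 CPM at 10 weeks. That of 10 markers of mature olfactory sensory neurons (OSNs) was 8005 to 9983 CPM against 11509 to 14917 CPM at 8 weeks and 11695 to 14729 CPM against 10652 to 13281 CPM at 10 weeks.

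The ribosomal protein genes took 1.73% to 3.15% of all counts in a mouse. At 8 weeks their share averaged 2.01% ± 0.183 in *WT* and 1.83% ± 0.106 in *iRhom2-/-* mice (± SD, n = 3 each). At 10 weeks it averaged 2.59% ± 0.47 and 2.69% ± 0.514 in these genotypes (± SD, n = 3 each). The genotypes overlapped at both ages, while *WT* mouse 2 and *iRhom2-/-* mouse 1 of 10 weeks, at 2.05% and 2.14%, lay below the other 4 mice of 10 weeks, which were at 2.77% to 3.15%. A lower share in bulk tissue can come from fewer cells with a high level or from less of these mRNAs per cell, and the counts cannot tell these apart. A share also falls where other transcripts take more of the total. Without Bpifb9b the share of *iRhom2-/-* mouse 2 of 10 weeks was 3.21%, against 2.77% with it. The averages without Bpifb9b were 2.08% in *WT* and 1.84% in *iRhom2-/-* mice at 8 weeks, and 2.60% and 2.84% at 10 weeks.

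**Figure D1:**
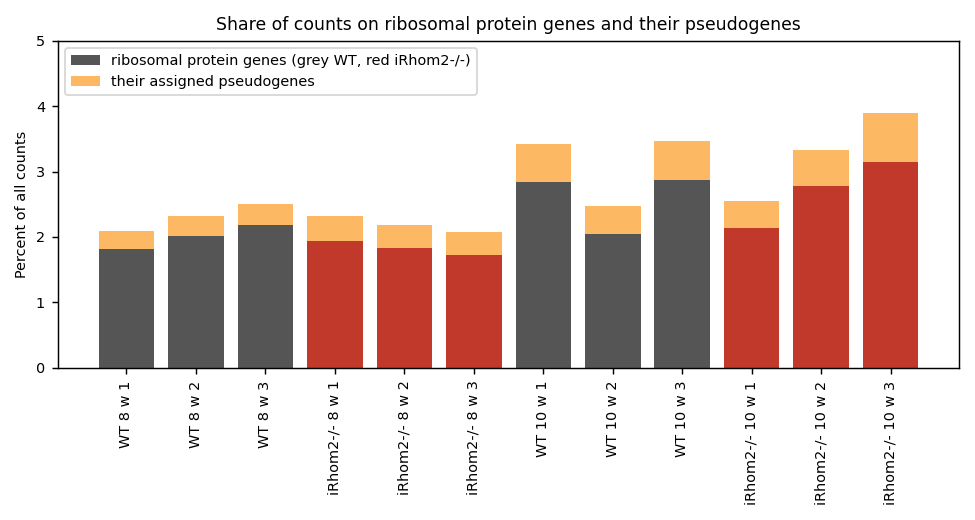
Percent of all counts in each of the 12 mice (bars, from 0) that fell on the 81 ribosomal protein genes and, stacked above them, on the pseudogenes assigned to them. Members alone ranged from 1.73% to 3.15%, the pseudogenes from 0.27% to 0.741%, and the mice of 10 weeks were on average above those of 8 weeks.

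Per kilobase of transcript, the level of the members ranged widely. Length here is that of 1 annotated transcript per gene, so a level per kb depends on which was chosen. For protein-coding genes it was the shortest with a coding sequence as long as that of the principal transcript. For Rpl5 it had 2045 bases, of which 894 were coding. The highest mean levels over the 12 mice were those of Rpl41, a very short basic peptide of the large subunit, at 1637 CPM per kb, of Rplp1, an acidic protein of the stalk that recruits translation factors, at 1118 CPM per kb, and of Rps27, a small subunit protein with a zinc finger, at 996 CPM per kb. Below all others were Rpl39l at 0.936, Rpl5 at 32 and Rps27rt at 49 CPM per kb. For Rpl5, which binds the 5S RNA, 86.9% to 91.5% of the counts of the gene and its pseudogenes lay on the pseudogenes in every mouse, and for Rpl27 this was 78.3% to 90.9%, so that most counts of these 2 families were not on the parent gene. Of the stalk proteins, Rplp0 was at 467 to 1231 CPM, Rplp1 at 372 to 957 CPM and Rplp2 at 166 to 376 CPM, with log2 fold changes between genotypes of -0.045, 0.022 and 0.026 over both ages (adjusted p of 0.948, 0.977 and 0.973 from edgeR).

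To ask whether loss of iRhom2 changed these genes, *iRhom2-/-* mice were compared with *WT* mice over both ages in edgeR, with a quasi-likelihood fit that holds a term for age. At an adjusted p under 0.1 Rpl29 was higher and Rpl30 lower in *iRhom2-/-* mice, and the other 79 genes did not pass. Those were 2 of 81 genes, where 0.529% of all 20030 genes tested passed. At an adjusted p under 0.05 Rpl30 alone passed, with 0.175% of all genes. At an unadjusted p under 0.05 there were 6 of the 81, beside 2251 of all 20030 genes tested. The 6 were Rpl29, Rpl30, Rps13, Rpl3, Rps15a and Rpl35a. Log2 fold changes lay within 0.2 of 0 for 42 of 49 genes of the large subunit and 29 of 32 of the small subunit, and with pseudogenes added for 47 and 31. The median log2 fold change of the 81 genes was 0.015, beside 0.0072 for all genes tested, and 47 of the 81 were positive. Each of these 6 genes, and Rps2, has annotated pseudogenes that are nearly the same in sequence and that changed in the opposite sense between mice, so the sequences of some of the pairs are given first.

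Pseudogenes were assigned to a member by sequence. Of 3638 annotated pseudogenes with counts, 810 matched a member best, with at least 80% identity over at least 50% of their length, and they fell on 75 of the 81 genes. Of 217 whose own name gives a member as the parent, 215 were assigned to it. The 122 with an identity of at least 99% held 94.3% of all counts on assigned pseudogenes.

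Rpl30 codes for a small protein of the large subunit. Over its 348 coding bases Gm12191, a processed pseudogene on chromosome 11, differs from it by 1 substitution, G96A, counted from the first base of the coding sequence. The lines give 61 bases around it on GRCm38, from chr15:34442676-34442736 (minus strand, coding exon) and chr11:49678932-49678992 (minus strand), with the differing base in capitals, to show how few bases separate the copies.
Rpl30: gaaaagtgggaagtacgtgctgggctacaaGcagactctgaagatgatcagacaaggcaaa
Gm12191: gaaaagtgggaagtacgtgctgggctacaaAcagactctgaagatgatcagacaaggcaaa

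Rpl3 codes for one of the largest proteins of the large subunit, near the peptidyl transferase centre. Rpl3-ps1, on chromosome X, differs over 1209 aligned coding bases by 2 substitutions, C57A and T786C. The windows hold the first, at chr15:80082499-80082559 (minus strand, coding exon) and chrX:13202598-13202658 (plus strand).
Rpl3: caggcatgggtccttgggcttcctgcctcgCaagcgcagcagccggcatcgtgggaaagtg
Rpl3-ps1: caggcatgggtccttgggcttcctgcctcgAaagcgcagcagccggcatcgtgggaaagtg

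Rps13 codes for a protein of the small subunit, and Rps13-ps1 on chromosome 8 differs over 456 coding bases by T411C and A429G. Both are marked in the windows from chr7:116331556-116332411 (minus strand, 61 coding bases on both sides of an intron) and chr8:87048109-87048169 (plus strand). A further copy, Rps13-ps2, also on chromosome 7, is identical to Rps13 over 453 coding bases.
Rps13: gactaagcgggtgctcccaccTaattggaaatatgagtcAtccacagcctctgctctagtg
Rps13-ps1: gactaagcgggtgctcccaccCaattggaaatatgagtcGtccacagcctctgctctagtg

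Rpl29 codes for a heparin-binding protein of the large subunit. Its 483 coding bases differ from those of Gm8210 on chromosome 1 by 3 substitutions, C72A, C300T and T423C, and Gm13841 on chromosome 5 carries the same 3. Gm10709, elsewhere on chromosome 9, differs by G205A, C300T, T423C and G457A. The windows hold the first substitution of Gm8210, at chr9:106430312-106430372 (plus strand, coding exon) and chr1:43189197-43189257 (plus strand).
Rpl29: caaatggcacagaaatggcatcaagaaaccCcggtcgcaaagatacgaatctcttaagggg
Gm8210: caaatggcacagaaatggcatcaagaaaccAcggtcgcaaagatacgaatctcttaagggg

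Rpl11 codes for a protein that forms a complex with Rpl5 and the 5S RNA and can bind Mdm2 when ribosome assembly fails. Gm10288 on chromosome 3 differs from it by G86A alone over 537 coding bases, in the windows from chr4:136052608-136052668 (minus strand, coding exon) and chr3:146839232-146839292 (minus strand).
Rpl11: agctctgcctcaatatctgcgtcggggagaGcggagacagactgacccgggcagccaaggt
Gm10288: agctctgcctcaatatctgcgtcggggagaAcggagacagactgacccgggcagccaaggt

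Rpl30 (chr15:34440505-34443640, minus strand) was at 146, 147 and 149 CPM in the *WT* mice of 8 weeks and at 100, 104 and 97.4 CPM in the *iRhom2-/-* mice of 8 weeks. At 10 weeks it was at 240, 184 and 238 CPM in *WT* mice and at 121, 98.2 and 122 CPM in *iRhom2-/-* mice. All 6 *iRhom2-/-* mice lay below all 6 *WT* mice. Pooled over the ages, the log2 fold change came to -0.75 (standard error [SE] 0.099, edgeR adjusted p = 0.00723). The exact permutation test within ages gave an unadjusted two-sided p of 0.005, the smallest the design allows. It was run on the same values and is not separate evidence. Gm12191 was at 0 to 12 CPM in the 6 *WT* mice and at 40.1, 41.2 and 43.6 CPM in the *iRhom2-/-* mice of 8 weeks and 46, 104 and 103 CPM in those of 10 weeks. Of the counts on Rpl30 with all its 11 pseudogenes, the pseudogenes held 6.25% to 7.57% per *WT* mouse, below the 28.6% to 54.9% per *iRhom2-/-* mouse. The sum was 160, 159 and 161 CPM in *WT* mice and 141, 145 and 141 CPM in *iRhom2-/-* mice at 8 weeks, and 259, 197 and 254 CPM against 178, 215 and 255 CPM at 10 weeks. Its log2 fold change was -0.15 (SE 0.092, edgeR adjusted p = 0.568), and the groups overlapped at 10 weeks.

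Rpl29 (chr9:106429454-106431568, plus strand) was at 19.3, 22.4 and 22.3 CPM in the *WT* mice of 8 weeks and at 108, 24.1 and 23.3 CPM in the *iRhom2-/-* mice of that age. The *WT* mice of 10 weeks were at 56.6, 44.9 and 51.8 CPM and the *iRhom2-/-* mice of 10 weeks at 227, 310 and 190 CPM. Mouse 1 stood apart among the *iRhom2-/-* mice of 8 weeks, and the other two were within 5 CPM of the *WT* mice. The log2 fold change was 1.77 (SE 0.36, edgeR adjusted p = 0.0772, unadjusted exact two-sided p = 0.005 within ages on the same values, the smallest the design allows). The call was lost in 10 of the 12 fits that left out 1 mouse, with adjusted p up to 0.239 without *iRhom2-/-* mouse 1 of 8 weeks, and held without *iRhom2-/-* mouse 2 or 3 of 8 weeks. Without both libraries richest in Bpifb9b the adjusted p was 0.133. Between 73.1% and 86.8% of the counts on Rpl29 with its 51 pseudogenes lay on the pseudogenes in all *WT* mice and in *iRhom2-/-* mice 2 and 3 of 8 weeks, against 35.2% in *iRhom2-/-* mouse 1 of 8 weeks and 4.74%, 6.91% and 33.5% in those of 10 weeks. Gm8210 was at 99.6 to 139 CPM in the *WT* mice of 10 weeks and at 0, 0 and 52.8 CPM in the *iRhom2-/-* mice. Summed, Rpl29 was at 147, 144 and 144 CPM in *WT* mice against 168, 155 and 147 CPM at 8 weeks, and at 225, 166 and 212 CPM against 238, 330 and 289 CPM at 10 weeks, with a log2 fold change of 0.31 (SE 0.11, edgeR adjusted p = 0.307). The summed values overlapped at 8 weeks, where *iRhom2-/-* mouse 3 lay just under *WT* mouse 1, and not at 10 weeks.

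Rps13 (chr7:116331505-116334195, minus strand) was at 144, 170 and 179 CPM in the *WT* mice and 36.7, 34.7 and 31.2 CPM in the *iRhom2-/-* mice of 8 weeks. At 10 weeks *WT* mice were at 229, 164 and 231 CPM and *iRhom2-/-* mice at 163, 241 and 110 CPM. The 3 *iRhom2-/-* mice of 8 weeks and mouse 3 of 10 weeks were low, and *iRhom2-/-* mice 1 and 2 of 10 weeks lay with the *WT* mice. Over both ages the log2 fold change was -1.27 (SE 0.34, edgeR adjusted p = 0.178). Rps13-ps1 was at 131, 144, 135 and 263 CPM in the 4 mice with low Rps13 and at 6.55 to 12 CPM in the other 8, while Rps13-ps2 was at 0 to 0.207 CPM in the 4 and at 6.07 to 41.4 CPM in the other 8. Pseudogenes held 70.6% to 81.3% of the summed counts in the 4 mice and 10.5% to 18.9% in the 8. With them added, Rps13 was at 162, 189 and 201 CPM in *WT* and 169, 178 and 166 CPM in *iRhom2-/-* mice of 8 weeks, and at 284, 197 and 280 CPM against 197, 285 and 378 CPM at 10 weeks. The genotypes overlapped at both ages, with *iRhom2-/-* mouse 3 of 10 weeks the highest, and the log2 fold change was 0.033 (SE 0.15, edgeR adjusted p = 0.96).

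For Rpl3 (chr15:80077791-80091868, minus strand) the same 4 mice were low. It was at 478, 463 and 496 CPM in *WT* mice and at 187, 197 and 196 CPM in *iRhom2-/-* mice of 8 weeks, and at 594, 504 and 622 CPM against 474, 714 and 298 CPM at 10 weeks. Pooled over the ages, the log2 fold change came to -0.76 (SE 0.23, edgeR adjusted p = 0.232). Rpl3-ps1 was at 261 to 335 CPM in the 4 mice and at 11.2 to 84.8 CPM in the others, and the pseudogenes held 53.1% to 59.9% of the summed counts against 2.48% to 12.6%. Summed, Rpl3 differed by -0.036 on the log2 scale (SE 0.097, edgeR adjusted p = 0.929).

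Rps2, a protein at the mRNA entrance of the small subunit, had the widest range relative to the other members, 4.06 on the log2 scale. It was at 440, 397 and 425 CPM in the *WT* mice of 8 weeks and at 29.2, 33.6 and 31.5 CPM in the *iRhom2-/-* mice of 8 weeks. At 10 weeks *WT* mice were at 288, 215 and 273 CPM and *iRhom2-/-* mice at 383, 648 and 47.5 CPM. The 4 mice that were low in Rps13 and Rpl3 were also the lowest in Rps2, and the *WT* mice of 10 weeks lay between them and the rest. Over both ages the log2 fold change was -1.63 with an SE of 0.88 (edgeR adjusted p = 0.516). The share of the summed counts on pseudogenes was 2.83% to 3.29% in the *WT* mice of 8 weeks, 10.2% in *iRhom2-/-* mice 1 and 2 of 10 weeks, 56.1% to 58.2% in the *WT* mice of 10 weeks and 93.2% to 93.9% in the 4 low mice. Rps2-ps10, the most counted of its 59 pseudogenes, was at 7.31 to 11.1 CPM, 17.2 to 33.8 CPM, 260 to 335 CPM and 444 to 648 CPM in these sets of mice. The sum was at 459, 409 and 437 CPM against 480, 495 and 479 CPM at 8 weeks and at 659, 506 and 652 CPM against 425, 715 and 765 CPM at 10 weeks. Its log2 fold change was 0.11 (SE 0.13, edgeR adjusted p = 0.795).

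**Figure D2:**
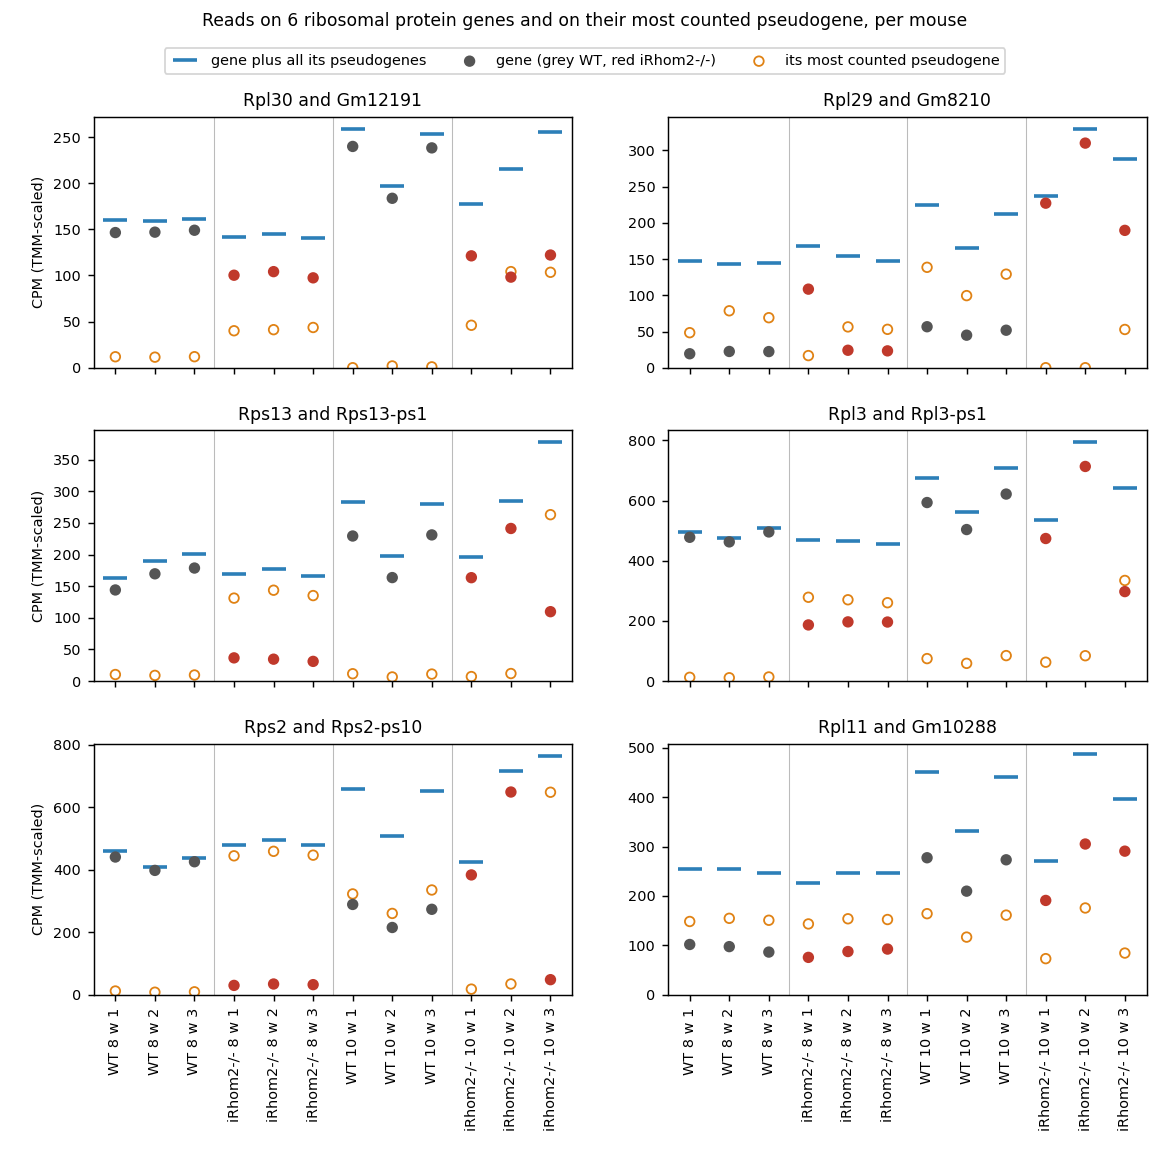
CPM (TMM-scaled) in each of the 12 mice for 6 ribosomal protein genes (filled points, grey *WT* and red *iRhom2-/-*), their most counted pseudogene (open points) and the sum of the gene with all its assigned pseudogenes (bars); every vertical axis starts at 0. For Rps13, Rpl3 and Rps2 the open point lies above the filled point in the 3 *iRhom2-/-* mice of 8 weeks and in mouse 3 of 10 weeks, and for Rps2 also in the 3 *WT* mice of 10 weeks. The sum of Rps13 in *iRhom2-/-* mouse 3 of 10 weeks, at 378 CPM, lies above the other mice of that age, at 197 to 285 CPM.

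The share on pseudogenes also differed between mice, by less, for 2 further genes. Rps15a, of the small subunit, was at 96.2, 93.4 and 91.8 CPM in the *iRhom2-/-* mice of 8 weeks and at 151 to 257 CPM in the other 9 mice, and the share on pseudogenes was 18.2% to 26.6% in the 4 mice named above and 1.24% to 4.45% in the other 8. Over both ages Rps15a was at -0.42 on the log2 scale (edgeR adjusted p = 0.364) and at -0.20 when summed (adjusted p = 0.643). At 8 weeks its sum was still lower in *iRhom2-/-* mice, at 112 to 122 CPM against 155 to 175 CPM in *WT* mice. For Rpl35a, of the large subunit, the share on pseudogenes was 22.9% in *iRhom2-/-* mouse 3 of 8 weeks and 36.6% and 36.4% in *iRhom2-/-* mice 2 and 3 of 10 weeks. It was 3.32% to 6.85% in the other 9 mice. Its log2 fold change was -0.28 alone (adjusted p = 0.379) and -0.027 summed (adjusted p = 0.97).

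With the counts of the assigned pseudogenes added to each parent and the whole table fitted again, 0 of 81 members passed an adjusted p under 0.1 over both ages in edgeR, where 0.536% of all 19764 rows tested passed. At an unadjusted p under 0.05 there was 1 of the 81, Rpl29, beside 2249 of the 19764 rows. DESeq2 called 0 members as well. The median log2 fold change of the sums was 0.0013, with 43 positive and 38 negative. Which of the 2 values is nearer to the level of the transcripts of the parent gene cannot be told from the counts alone, since the table does not hold the reads.

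**Figure D3:**
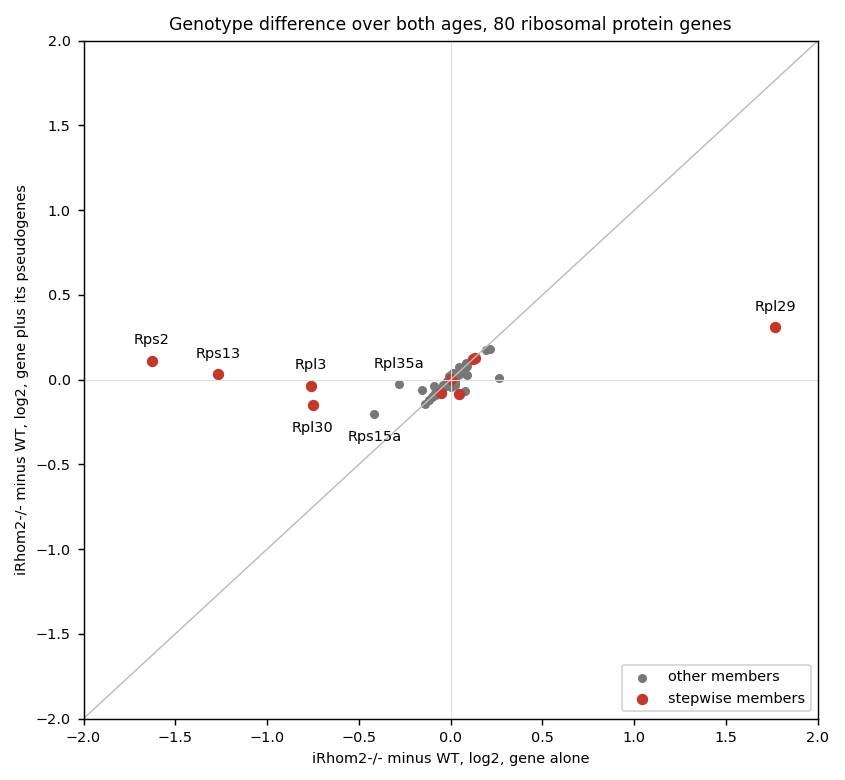
Log2 fold change of *iRhom2-/-* over *WT* mice over both ages for 80 ribosomal protein genes (Rpl39l is left out), for the gene alone on the horizontal axis and for the gene with its pseudogenes on the vertical axis, with the line of equality. Rps2, Rps13, Rpl3, Rpl30 and Rpl29 lie far from 0 on the horizontal axis, at -1.63 to 1.77, and between -0.15 and 0.31 on the vertical axis.

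Within 8 weeks, 3 mice against 3, 7 members were lower in *iRhom2-/-* mice (Rpl3, Rpl30, Rps13, Rps15a, Rps2, Rps24 and Rps27l) and 0 were higher, where 4.98% of 19335 genes passed in either direction and 1.74% were lower. Their log2 fold changes ran from -3.75 for Rps2 (SE 0.088, edgeR adjusted p = 3.33e-06) over -2.27 for Rps13 and -1.32 for Rpl3 to -0.35 for Rps27l (adjusted p = 0.0966). Among all 81 genes, 68 were negative, with a median of -0.11 beside -0.0013 for all genes, and the medians of the large and the small subunit were -0.079 and -0.16. Summed with pseudogenes, 4 were lower (Rpl12, Rps15a, Rps24 and Rps27l), 0 were higher and the median was -0.11. Of all rows 4.93% passed in either direction and 1.71% were lower. The call remained for Rps15a, Rps24 and Rps27l and not for Rps2, Rps13, Rpl3 and Rpl30. Rps24, a protein of the small subunit, was at 291, 321 and 339 CPM in *WT* mice and at 251, 253 and 230 CPM in *iRhom2-/-* mice, with 1.08% to 1.64% of its counts on pseudogenes, and differed by -0.38 alone and summed (edgeR adjusted p = 0.0756 and 0.0775). Rps27l, with at most 0.0423% of its counts on pseudogenes at this age, was at 46.6, 52.2 and 56.4 CPM against 39.5, 44.3 and 38.5 CPM. The genotypes did not overlap in either gene. Rps15a summed was at 155, 164 and 175 CPM against 122, 116 and 112 CPM, a difference of -0.50 (edgeR adjusted p = 0.0322), where the gene alone differed by -0.79 (adjusted p = 0.00391). At this age the log2 fold changes of all 6 plasma cell and all 10 lymphocyte markers were negative, with medians of -4.20 and -1.52 and 3 of the 16 past the threshold, and 9 of 10 OSN markers were positive, with a median of 0.44 and 3 past it. *WT* mouse 1 was far above the other *WT* mice in both immune lists, with lymphocyte sums of 106, 35 and 35.2 CPM in *WT* mice against 18.6 to 29.8 CPM. Without it 13 members were lower, with a median of -0.14 over the 81, and the share over all genes was not taken in that fit. The part of cell composition in the shift of the ribosomal protein genes was not tested.

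At 10 weeks Rpl29 was higher by 2.25 on the log2 scale (SE 0.19, edgeR adjusted p = 0.0117) and Rpl30 lower, at -0.95 (SE 0.15, adjusted p = 0.098). These were 2 of 81, where 0.197% of 18764 genes passed. With any 1 of the 6 mice left out Rpl29 passed and Rpl30 did not. In contrast to 8 weeks, 71 of the 81 genes were positive, with a median of 0.12 (0.13 for the large and 0.10 for the small subunit). The median turned to -0.023 without *WT* mouse 2, -0.0084 without *iRhom2-/-* mouse 2 and -0.0026 without *iRhom2-/-* mouse 3, and was 0.31 without *iRhom2-/-* mouse 1. At this age the marker medians were 0.12 for plasma cells, -0.021 for lymphocytes and -0.16 for mature OSNs. When summed with pseudogenes 0 passed, where 0.178% of all rows did. An unadjusted p under 0.05 was held by 1 member, beside 1464 of 18522 rows. The test of the difference between ages, 8 weeks minus 10 weeks, passed for Rps13 alone, at -1.98 (SE 0.33, edgeR adjusted p = 0.084), 1 of 81 genes where 0.0799% of all genes passed. For Rps2 this difference was -4.22 with an adjusted p of 0.14, and for Rpl3 -1.10 with 0.26. Rps13 lost the call in 10 of the 12 fits without 1 mouse, the exceptions being *iRhom2-/-* mouse 3 of 10 weeks and mouse 1 of 8 weeks. Summed with pseudogenes its difference was -0.29 (adjusted p = 0.732), and 0 members passed, where 0.0607% of all rows did. An unadjusted p under 0.05 was held by 1 member, beside 2385 of 19764 rows.

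The spread between mice was then described without regard to genotype, as log2 CPM minus the median of the 81 genes in the same mouse. A gene was called stepwise if its mice fell into 2 sets of at least 2 with a gap of at least 0.5 between them, and as varying together if its whole range was at most 0.5. By this description 10 genes were stepwise, 37 varied together with the others and 34 lay between. The gaps were 2.40 for Rps2, 1.33 for Rpl29, 1.21 for Rps13, 1.13 for Rps27rt, 1.04 for Rpl41, 0.89 for Rpl3, 0.86 for Rpl12, 0.83 for Rpl37rt, 0.67 for Rpl11 and 0.61 for Rpl30. Rpl35 at 0.49, Rps6 at 0.44 and Rps15a at 0.44 were just outside. The share over all genes was not taken with the members' median subtracted, so the count of 10 has none beside it. Centred instead on the median of all genes, 22 of the 81 (27.2%) were stepwise. This centring leaves in the shift that most members share between ages, and 7 of the 22 split by age. Stepwise in the same way were 3.33% of the 8888 genes with at least 18.3 CPM, the level of the second lowest member. Of those 296 genes 98 split by age. Among the 8888 were 89 pseudogenes, of which 49.4% were stepwise. Rpl39l, which is counted in the 81, lies below that level.

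Rps2, Rps13 and Rpl3 shared their step: in each, the low set was *iRhom2-/-* mice 1, 2 and 3 of 8 weeks and mouse 3 of 10 weeks. The low set of Rpl30 was *iRhom2-/-* mice 2 and 3 of 10 weeks, and that of Rpl29 held all *WT* mice and *iRhom2-/-* mice 2 and 3 of 8 weeks. The other 5 genes, Rpl11, Rpl12, Rpl41, Rps27rt and Rpl37rt, were split by age, with all mice of 8 weeks low. Summed with pseudogenes 4 genes were stepwise, namely Rpl41, Rps27rt, Rpl37rt and Rpl22l1, and 55 varied together. The share over all rows was not taken for these counts. No member was added to another member, so Rps27rt and Rpl37rt were not summed with Rps27 and Rpl37.

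**Figure D4:**
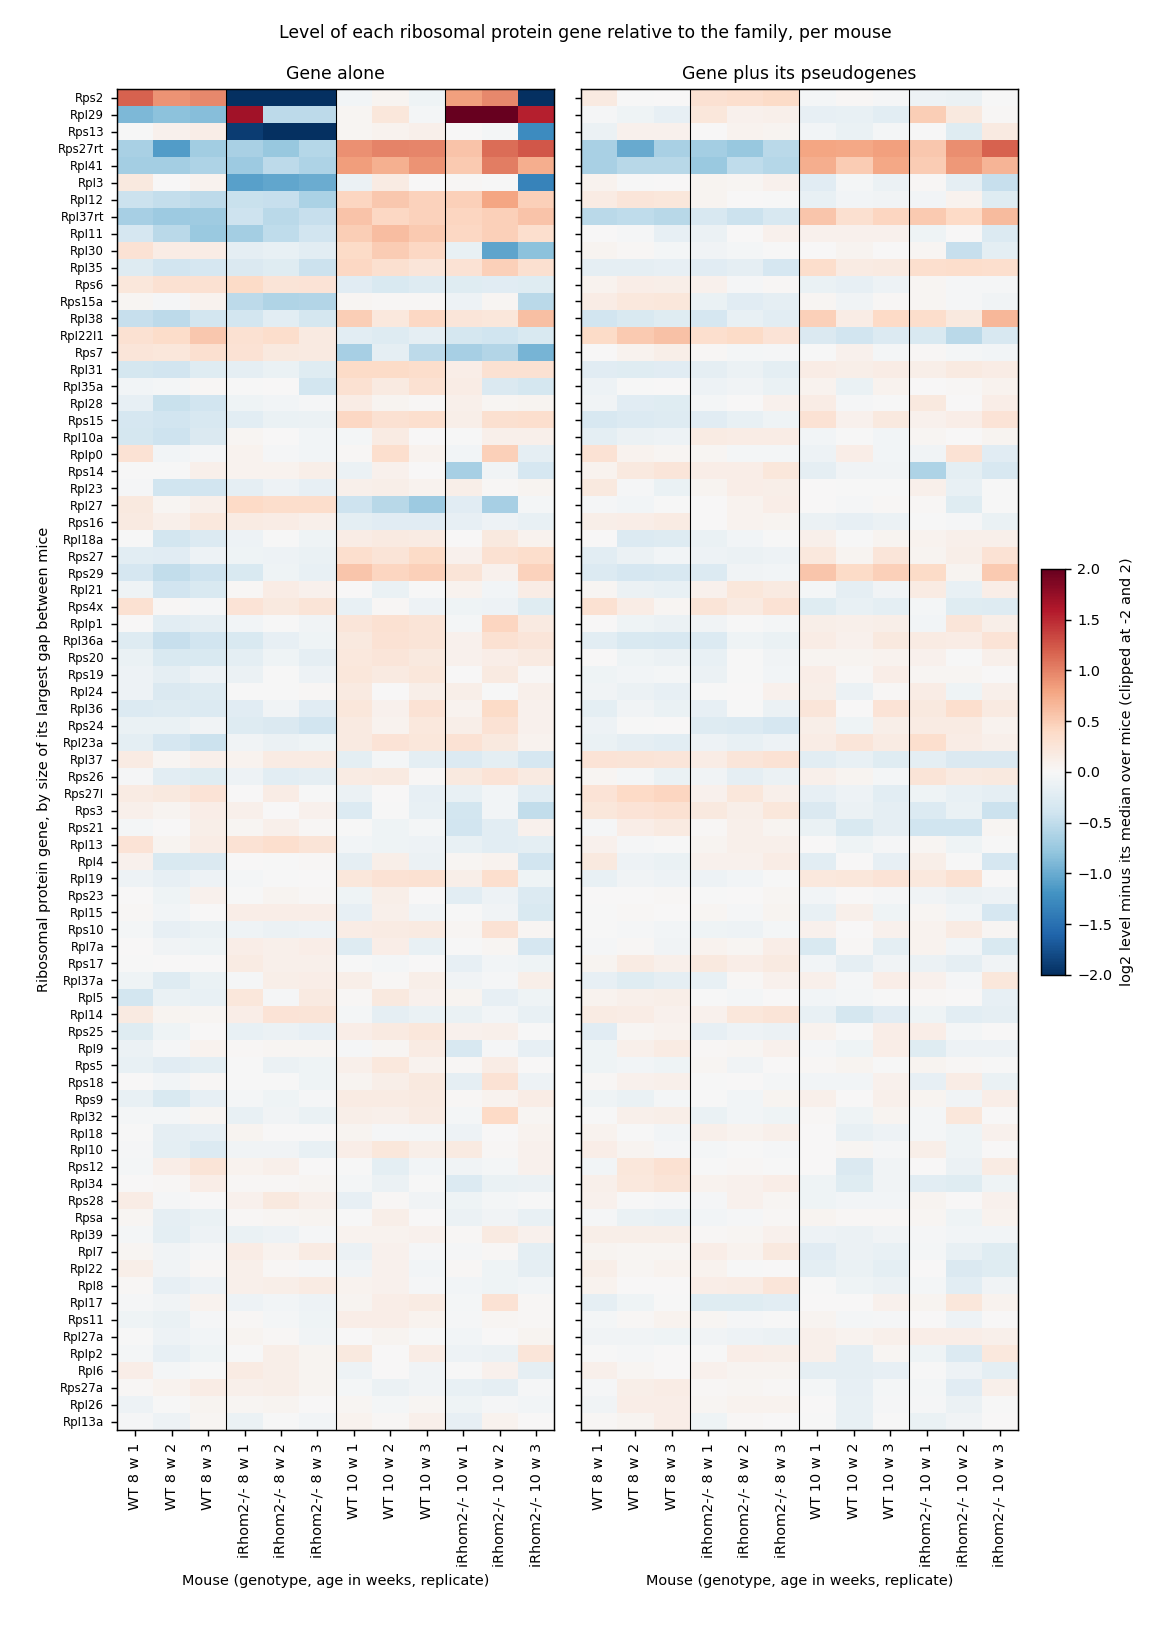
Log2 level (colour, clipped at -2 and 2) of the ribosomal protein genes shown (rows, without Rpl39l, which is near the floor) in the 12 mice (columns), each minus the median of the 81 genes in that mouse and minus the gene's own median over mice, for the gene alone (left) and with its pseudogenes added (right). On the left most rows show small differences, while Rps2, Rps13, Rpl3, Rpl29 and Rpl30 show blocks of mice with low or high values, and Rps27rt and Rpl41 split by age.

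Of the 5 genes that split by age, the share on pseudogenes differed between the ages for Rpl12 and Rpl11 and was near 0 for the other 3. For Rps27rt and Rpl37rt this share leaves out Rps27 and Rpl37. It therefore cannot show how counts were divided between these near-identical genes. Rpl12, of the stalk base, was at 42.4 to 55.9 CPM (median 50.7) at 8 weeks and at 109 to 207 CPM (median 144) at 10 weeks, with 76.3% to 79.4% of the summed counts on pseudogenes at 8 weeks and 47.9% to 57% at 10 weeks. Gm10275, identical to Rpl12 over 498 coding bases, was at 153 to 213 CPM and 122 to 223 CPM. Rpl11 was at 75.3 to 101 CPM (median 89.6) at 8 weeks and at 191 to 305 CPM (median 275) at 10 weeks, and Gm10288 at 143 to 154 CPM and 72.7 to 175 CPM. The ages did not overlap in either gene, while they overlapped in both pseudogenes. Their age differences, 10 weeks minus 8 weeks, were 1.55 and 1.52 on the log2 scale alone and 0.48 and 0.69 summed, all past the threshold. Rpl41, of which at most 0.024% of the summed counts lay on pseudogenes, was at 254 to 326 CPM (median 290.2) at 8 weeks and at 713 to 1560 CPM (median 1233) at 10 weeks, a difference of 1.98 (SE 0.18, edgeR adjusted p = 1.01e-05). Rps27rt, a retrogene of Rps27, was at 5.23 to 7.16 CPM (median 6.4) and 17.1 to 44.2 CPM (median 30.2), a difference of 2.27 (SE 0.20). Rpl37rt, a retrogene of Rpl37, was at 29.4 to 33 CPM (median 31.4) and 66.5 to 125 CPM (median 101), a difference of 1.60 (SE 0.14). All 3 were higher in every mouse of 10 weeks than in every mouse of 8 weeks.

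Among the members that varied least relative to the others were Rpl26 and Rpl27a, with a range of 0.16 each on the log2 scale over the 12 mice, and Rpl18 and Rpl13a with 0.25 each. They were at 275 to 511, 99.4 to 207, 221 to 442 and 453 to 936 CPM. For Rpl27a 54.6% to 66.7% of the summed counts lay on pseudogenes, in near-equal shares within each age, so pseudogene counts were present without a step. A run of at least 7 C or T bases on the sense strand lay within 20 bases of the annotated start in 38 of 61 members with a RefSeq start (62.3%, GRCm38.p6), against 7430 of 27025 genes (27.5%). Such a match describes the letters of the window only.

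Between ages most members rose. At 10 weeks 68 of 81 were higher and 1, Rps7, was lower, where 51% of all genes passed in either direction and 26.9% were higher. The median log2 difference was 0.63, beside -0.0051 for all genes tested, and the 12 members that did not pass included Rps2, Rpl22l1, Rps27l, Rpl37 and Rps3. Rps7 fell by 0.33 on the log2 scale (SE 0.10, edgeR adjusted p = 0.0216), with 232 to 307 CPM (median 255) at 8 weeks and 153 to 249 CPM (median 209) at 10 weeks, while its pseudogenes held 12.7% to 15.1% of the summed counts at 8 weeks and 48% to 62.4% at 10 weeks. Summed, Rps7 was higher at 10 weeks by 0.64 (adjusted p = 0.00127). With all genes summed with their pseudogenes 75 members were higher and 0 lower, where 26% of all rows were higher. Without both libraries richest in Bpifb9b, 61 were higher and 1 lower.

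Short transcripts of other genes were higher at 10 weeks as well, with lengths from the same choice of 1 transcript per gene. Of the members with a transcript of at most 500 bases 19 of 20 were higher (95%), and of other protein-coding genes of that length 97 of 142 (68.3%). From 501 to 700 bases the shares were 82.6% of 23 members and 63.6% of 319 others. From 701 to 1000 bases they were 76.2% of 21 and 36.1% of 1300. From 1001 to 1500 bases they were 81.8% of 11 and 46.9% of 1982, and from 1501 to 3000 bases 80% of 5 and 32.8% of 5893. The median log2 differences of members and others were 0.811 and 0.74 up to 500 bases and 0.646 and 0.605 from 501 to 700 bases. They were 0.616 and 0.275 from 701 to 1000 bases and 0.512 and 0.0935 from 1501 to 3000 bases. Over 3000 bases 9.11% of 7029 other genes were higher and 3243 were lower, with a median of -0.226. The 1 member of that length, Rps20, was higher by 0.893. Spearman's rho between transcript length and the log2 difference was -0.17 over the 81 members and -0.49 over 16665 other protein-coding genes, across genes that share the same 12 libraries and are not independent. The part of transcript length and of the core reference number in the age difference was not tested.

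**Figure D5:**
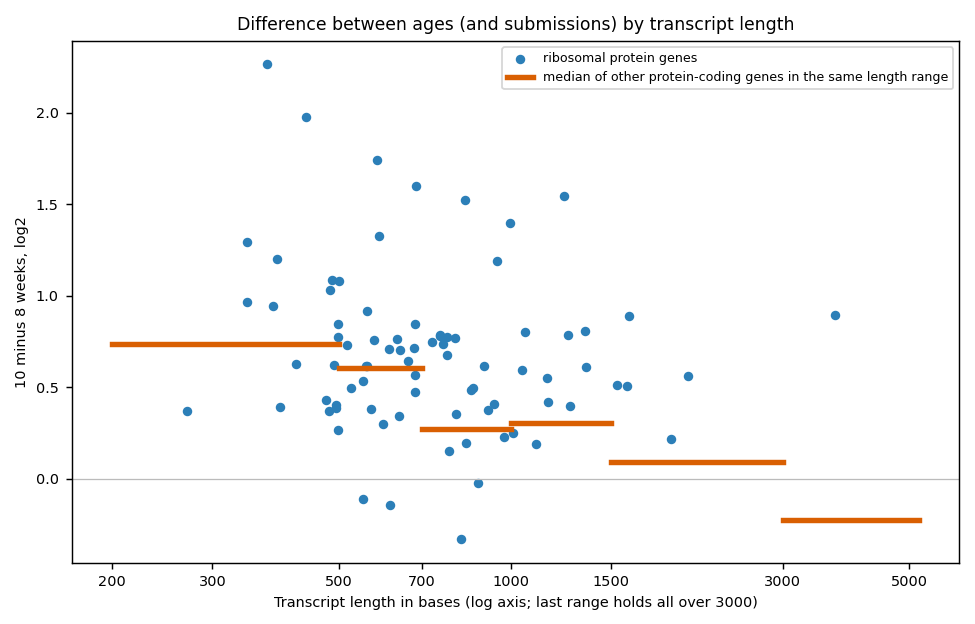
Log2 difference of 10 weeks minus 8 weeks against transcript length in bases (log axis) for the 81 ribosomal protein genes (points). Horizontal lines give the median of the other protein-coding genes tested in each length range. From 501 to 700 bases the medians were 0.646 for members and 0.605 for other genes. From 701 to 1000 bases they were 0.616 and 0.275.

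Over the whole set, 12.8% to 13% of the counts on members and pseudogenes lay on pseudogenes in the *WT* mice of 8 weeks, 16.3% to 16.8% in the *iRhom2-/-* mice of 8 weeks, 16.8% to 17.4% in the *WT* mice of 10 weeks and 16% to 19% in the *iRhom2-/-* mice of 10 weeks. The ratio of summed large to small subunit CPM at 8 weeks ran from 1.32 to 1.40 for *WT* and from 1.46 to 1.49 for *iRhom2-/-* mice, which did not overlap, and with pseudogenes added from 1.49 to 1.57 and from 1.55 to 1.58, which did.

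Paralogs that can replace a ribosomal protein were also compared. Rpl22l1, which shares 74.6% of 299 aligned coding bases with Rpl22, was at 26.2 to 49.3 CPM and Rpl22 at 122 to 212 CPM, and neither differed between genotypes (log2 fold changes of -0.14 and -0.033, adjusted p of 0.753 and 0.94 from edgeR). Rpl22 was higher at 10 weeks by 0.43 (adjusted p = 0.00399) and Rpl22l1 was at -0.11 (adjusted p = 0.547). Rps27l, a target of p53, was at 38.5 to 68.3 CPM and Rps27 at 217 to 582 CPM. Rpl39l, the testis-enriched paralog of Rpl39, was at 3 to 46 counts in a library, against 70 to 156 CPM for Rpl39, and its log2 fold change of -0.70 had an SE of 0.46. Rps27 and Rps27rt are identical over 255 coding bases and Rpl37 and Rpl37rt share 99.7% of 294, so the counts of these 4 genes are uncertain in how they were divided.

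Other genes of ribosomes and translation were read from lists. Over both ages 0 of 6 ribosomal proteins outside the name rule passed in edgeR at an adjusted p under 0.1. Of translation factors with pyrimidine-start mRNAs 0 of 17 passed, and of genes of ribosome biogenesis 0 of 34. Of genes of RNA polymerase I 0 of 12 passed, of mTOR signalling 0 of 17 and of the p53 response 0 of 9. An unadjusted p under 0.05 was held by 6 of these 95 genes, beside 2251 of all 20030 genes tested. The smallest p among the factors belonged to Eif3e, a subunit of the initiation factor that binds the small subunit, at -0.14 (adjusted p = 0.355), and Eif3l, of the same complex, at 0.13 (adjusted p = 0.414). At 8 weeks Eef1b2, an exchange factor of elongation, was lower, at -0.25 (edgeR adjusted p = 0.0951) and Rrp1, a nucleolar protein, higher by 0.27 (adjusted p = 0.0833). They were 1 of 17 translation factors and 1 of 34 biogenesis genes, and 1 of the 9 genes of the p53 response was also lower. Of all 19335 genes tested at that age 3.24% were higher and 1.74% lower. At 10 weeks against 8 weeks 5 of 6 ribosomal proteins outside the rule were higher, among them Fau, a ubiquitin-like fusion to a protein of the small subunit, by 1.74 (adjusted p = 1.33e-05). Of the translation factors 10 were higher and 2 lower, among the latter Pabpc1, the cytoplasmic poly(A)-binding protein, at -0.50 (adjusted p = 0.0148). Of the 34 biogenesis genes 18 were higher and 5 lower, and of the 17 mTOR genes 4 and 5. Between these ages 26.9% of all 20030 genes tested were higher and 24.1% lower.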

How the data were processed

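Whole OE was taken from both nares, and polyadenylated RNA was sequenced with a stranded kit. Per the labels and the study's methods, the authors ran nf-core with STAR on GRCm38, and deposited RSEM expected counts per gene as whole numbers, without normalization. Of 24 columns, the 12 of 8 and 10 weeks were tied to 1 mouse by their names, and 12, 6 per genotype, were not and are not used, so 5 and 30 weeks are not analysed here. The deposited table's own fold changes and p-values were not used.

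Counts were fitted in R 4.3.3 with edgeR 4.0.16 (filterByExpr, TMM, quasi-likelihood test, Benjamini-Hochberg over all genes tested, thresholds of 0.1 and 0.05). Mice are separate libraries, and p-values measure the spread between them. The SE of an edgeR fold change was derived from the test, as the absolute log2 fold change over the square root of its F statistic. The fits were tested on simulated data. Pseudogene and transcript sequences of GENCODE M21 (GRCm38) were compared with blastn 2.17.0 (word size 20). Relative levels used a prior count of 2, and a floor is 3 counts. No pair of libraries within a group agreed within counting error.

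The members, lists and comparisons were chosen with earlier results of these data known. Named genes are members past an adjusted p of 0.1, stepwise members, the 3 highest and 3 lowest per kb, paralogs, stalk proteins, the 5 least varying, and the 2 smallest p in each direction of other lists. Rps15a, Rpl35a, Rps7, Rpl27, Rps24, Fau, Eef1b2, Rrp1, members called at 1 age and those just outside a threshold were named after their values were seen. Values of some genes the rule names are not reported here. Alternatives were DESeq2 1.42.0, RLE and library-total scaling, other filters and thresholds, a likelihood ratio test, no age term, sex, a replicate block, each mouse left out, and sums with pseudogenes.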

Additional observations from a re-analysis of the deposited data

Results flagged for a closer look

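The genotype difference of Rps13 was larger at 8 weeks than at 10 weeks, by -1.98 on the log2 scale in edgeR's test of the interaction (adjusted p = 0.084), and it stands out because the effect of genotype differed between the ages. All 3 *iRhom2-/-* mice of 8 weeks lay below the *WT* mice of that age, at 31.2 to 36.7 CPM against 144 to 179 CPM, while at 10 weeks the *iRhom2-/-* mice were at 163, 241 and 110 CPM against 164 to 231 CPM. The call was lost in 10 of the 12 fits that left out 1 mouse. With pseudogenes added, the difference between ages was -0.29 (adjusted p = 0.732).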

How the results depend on the processing

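Over both ages 2 members passed, and 4 did with DESeq2 (Rpl29, Rpl3, Rpl30 and Rps13), 1 with library totals without TMM, with sex as a term or at an adjusted p of 0.05, and 0 without the age term or summed with pseudogenes; leaving out 1 mouse gave 1 to 3. At 8 weeks 7 became 19 with DESeq2 and 4 summed, and 5 to 13 with 1 mouse left out, the 13 without *WT* mouse 1 of 8 weeks. The share of all genes called was taken for the main and the summed fits only. Counts under the other alternatives, at every comparison, have none beside them. At 10 weeks 2 became 0 summed and 1 (Rpl30) in the fit of both ages, and 1 (Rpl29) with each mouse left out in turn. The interaction gave 4 with DESeq2 and 0 summed, and 0 to 3 without 1 mouse, the 3 (Rpl3, Rps13, Rps2) without *iRhom2-/-* mouse 3 of 10 weeks. The age count stayed within 62 to 75, and the sums over both ages gave 0 under every alternative run. Stepwise genes numbered 17 at a gap of 0.3, 5 at a gap of 1, 22 without subtracting the members' median and 4 summed. The fold changes of Rps13 and Rps2 turned to 0.033 and 0.11 when summed, where the construction adds the counts of the pseudogenes; for the other changes the cause was not tested. Rpl30 was between -0.79 and -0.69 without 1 mouse and past the threshold each time.

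Deviations of same-numbered mice were correlated at r from -0.0028 to 0.227 over 6 pairs, and those of differently numbered mice at -0.243 to 0.153. These ranges overlap, and whether the numbers pair the mice cannot be told from them. The main fits did not pair them. With the replicate block in edgeR 1 member passed (Rpl30, adjusted p = 0.0482) and Rpl29 was at 1.58 (adjusted p = 0.265). Depth limited Rpl39l most, with 3 to 46 counts in a library. Alternatives without the libraries richest in Bpifb9b, with other TMM sets and with stricter pseudogene assignment were chosen after seeing the data.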

Other observations

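Genes of mitochondrial ribosomal proteins, which serve the separate ribosomes of mitochondria, were read in the same way. Over both ages 0 of 78 tested passed in edgeR at an adjusted p under 0.1. An unadjusted p under 0.05 was held by 1, beside 2251 of all 20030 genes tested. The median log2 fold change was 0.069, with 62 positive. The smallest p in each direction belonged to Mrpl37 at 0.16 (adjusted p = 0.43) and Mrps24 at -0.11 (adjusted p = 0.717). At 10 weeks 70 of 78 were higher than at 8 weeks and 0 lower, with a median of 0.58, where 26.9% of all genes were higher.

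Of 86 markers of cell types tested, 0 passed over both ages in edgeR at an adjusted p under 0.1. An unadjusted p under 0.05 was held by 11, beside 2251 of all 20030 genes tested. Taken by age, the plasma cell list had a median of -4.20 at 8 weeks and 0.12 at 10 weeks on the log2 fold scale (6 markers). The medians were -1.52 and -0.021 for 10 lymphocyte markers, -0.70 and 0.13 for 10 macrophage markers, 0.085 and 0.89 for 7 neutrophil markers, and 0.44 and -0.16 for 10 markers of mature OSNs. At 8 weeks *WT* mouse 1 was far above the other *WT* mice in the plasma cell and lymphocyte lists. Over both ages the smallest p among the plasma cell markers belonged to Jchain, which joins secreted antibodies, at -2.46 (edgeR adjusted p = 0.482). Counts on pseudogenes of under 95% identity to their parent were 1161 to 1530 per library at 8 weeks and 1914 to 3176 at 10 weeks.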
